A study of Mus musculus with 12 samples.

Results

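Adding the Met kinase inhibitor Crizotinib to cells whose FGF receptors were already blocked changed the RNA of many genes, and the comparison described here holds that change: tumourspheres given Crizotinib together with the FGF receptor kinase inhibitor PD173074 were set against tumourspheres given PD173074 alone. It takes 6 of the 12 RNA-sequencing libraries of the study, 3 with both inhibitors and 3 with PD173074 alone, chosen by the treatment in the sample labels and paired by cell line. All cells were treated for 24 h, with 1 µM of each inhibitor. The other 6 libraries (3 with the vehicle DMSO and 3 with Crizotinib alone) give the change with Crizotinib when FGF receptors were not blocked. The 3 cell lines A1005, A1129 and A1471 each came from a separate MMTV-Met mt;Trp53fl/+;Cre mammary tumour of spindloid (spindle-shaped, mesenchymal) pathology, so every library carries an activated Met transgene driven by the mammary MMTV promoter and Cre-dependent loss of a Trp53 allele. The paper also reports amplification of the endogenous Met gene in this mouse model, and describes kept transgene expression for non-spindloid lines. The sphere medium was free of serum and held EGF, basic FGF and insulin in all groups. Each line and treatment has 1 library, so the replicate is the tumour line (n = 3) and no library repeats another culture of the same line.

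Met is the receptor tyrosine kinase for hepatocyte growth factor and the FGF receptors are its relatives for fibroblast growth factors. Both pass their signal through adaptor proteins such as Gab1 and Frs2 to the Ras, Raf, MEK and ERK kinase chain and to PI3 kinase and Akt. ERK switches on genes of the ETS, AP-1 and Egr transcription factor families, D cyclins that drive cells into S phase, and feedback inhibitors (Sprouty, Spred and Dusp proteins) that damp ERK itself. Akt holds FoxO transcription factors out of the nucleus, and the mTORC1 kinase downstream of Akt holds back Tfeb, the factor for lysosome genes. Where cells depend on several receptors, blocking a single one can leave ERK and Akt signalling fed by the others.

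The libraries with PD173074 held 13828094 to 16957535 counts and those with both inhibitors 13077143 to 17750476, and genes tested held at least 99.8% of the counts in each. Mitochondrially encoded genes took 1.53% to 1.66% of the counts with PD173074 and 1.93% to 2.52% with both inhibitors, ranges that do not overlap, and the part of this shift in the results was not tested. The 7 markers listed for the spindloid lines (Vim, Met, Zeb1, Twist1, Prrx1, Fn1 and Sparc) were all tested. They summed to 10409 to 14054 CPM (read counts scaled to library size) with PD173074 and 10619 to 12522 CPM with both inhibitors. Prrx1 was near 0 in A1005 (0.242, 239.9 and 265 CPM in the PD173074 libraries of A1005, A1129 and A1471). Met, the gene of the transgene, held a large part of these sums, so they do not by themselves mark the spindloid type. The mesenchymal genes Snai2, Cdh2 and Acta2 were too low to be tested. Of 9 luminal or myoepithelial markers 3 were tested, with sums of 9.68 to 28.6 CPM and 7.62 to 48.2 CPM, and Elf5, Krt5 and Csn2 had at most 3 counts in each library. Of 8 leukocyte markers 3 were tested, with sums of 5.37 to 39.5 CPM and 11.4 to 54.6 CPM. Cd68 (log2 fold change 0.93 ± 0.20) and Cd74 (1.37 ± 0.41) were higher with both inhibitors in the paired test described next and not in the unpaired one, Ptprc did not pass the test, and Cd3e, Adgre1, Itgam and Lyz2 had at most 3 counts in each library. None of the 6 endothelial and 5 erythroid markers was tested, and their sums stayed at or below 3.02 CPM.

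With Crizotinib added to PD173074, 5506 of 13836 tested genes (39.8%) were called by edgeR (quasi-likelihood test with the line as a block, adjusted p under 0.05), 2714 higher (19.6%) and 2792 lower (20.2%). The same test without the pairing, which is how the study's methods describe its analysis, called 660 genes (4.77%), 116 higher (0.838%) and 544 lower (3.93%), and all 660 were among the paired calls with the same direction. Counts without the pairing are named as such. The median absolute log2 fold change of the 5506 genes was 0.72, and 264 of them rose and 459 fell by at least 1.5 on the log2 scale. The 3 lines moved the same way for 8634 of all tested genes (62.4%) and for 5398 of the called genes (98.0%), and the values of the 3 libraries with both inhibitors lay wholly above or below those of the 3 libraries with PD173074 alone for 2995 genes (21.6%). The lines did not respond in equal measure. The root mean square log2 difference between both inhibitors and PD173074 in A1005, A1129 and A1471 was 0.653, 0.922 and 0.78, against 0.331 to 0.360 between Crizotinib and DMSO. Leaving out A1129 left 2352 called genes and leaving out A1471 left 2940, each with 2 lines a group.

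Below, 3 values in a row are CPM in A1005, A1129 and A1471, and fold changes are log2 of both inhibitors over PD173074 alone with their standard error. Counts of called list members are to be read against all tested genes, of which 19.6% were called higher and 20.2% lower.

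ERK feedback inhibitors were lower with both inhibitors, and Spry4 and Dusp6 fell most among them. Of 16 tested members 12 were lower and 1 was higher, the median of their log2 fold changes was -1.52, and without the pairing 5 were lower. Spry4, a Sprouty protein that blocks Ras activation by receptor kinases, read 3.38, 13.9 and 9.54 CPM with PD173074 and 0.111, 0.627 and 0.0754 CPM with both inhibitors. The libraries with both inhibitors held 2, 10 and 1 Spry4 counts, all far below every PD173074 library (log2 fold change -4.94 ± 0.33, adjusted p = 4.75e-06). Dusp6, the phosphatase that removes phosphate from ERK in the cytoplasm, read 104, 104 and 51.7 CPM with PD173074 and 9.51, 4.01 and 3.17 CPM with both. The groups lay about an order of magnitude apart in each line, and the fold change was -3.98 ± 0.21 (adjusted p = 1.66e-06). Dusp6 lies at chr10:99263231-99267489 (GRCm38, ENSMUSG00000019960). Dusp5, its nuclear counterpart, fell from 20.2, 14.1 and 17.5 to 6.89, 1.75 and 1.74 CPM (log2 fold change -2.41 ± 0.31, adjusted p = 3.80e-04), and Spred2, which holds neurofibromin on Ras, fell from 72.9, 74.6 and 51.3 to 25.6, 8.59 and 8.9 CPM (log2 fold change -2.28 ± 0.27, adjusted p = 2.09e-04). For both genes the groups did not overlap. Il17rd, a receptor-like inhibitor of FGF signalling, was the 1 member that rose, from 0.544, 5.08 and 5.77 to 2.11, 11 and 19 CPM (log2 fold change 1.5 ± 0.38, adjusted p = 0.0108), with A1005 at the lowest level in both groups, and it lost its call without the pairing (adjusted p = 0.466) and when A1129 or A1471 was left out. Spry1 did not pass the test, at 9.0, 7.01 and 11.5 CPM against 5.73, 5.7 and 13.3 CPM (log2 fold change -0.25 ± 0.22, adjusted p = 0.396).

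The PEA3 group of ETS factors, whose transcription follows ERK activity, fell together. Etv5 read 32.5, 36.6 and 27.7 CPM with PD173074 and 3.17, 1.82 and 1.43 CPM with both inhibitors, lower in every line with no overlap (log2 fold change -3.91 ± 0.19, adjusted p = 1.35e-06). Etv4 went from 107, 80.8 and 84 to 11.8, 2.69 and 7.32 CPM (log2 fold change -3.73 ± 0.27, adjusted p = 6.90e-06) and was lowest in A1129. Etv1 went from 42.1, 105 and 51.1 to 11.4, 20.2 and 7.7 CPM (log2 fold change -2.3 ± 0.17, adjusted p = 7.89e-06). All 3 also passed without the pairing. Among the AP-1 subunits, which pair as dimers on shared sites, Fosl1 (also named Fra-1) fell from 212, 287 and 260.5 to 51.4, 17.2 and 33.3 CPM (log2 fold change -2.99 ± 0.29, adjusted p = 5.65e-05), while Jund rose from 158, 222 and 206 to 249.98, 747 and 430.2 CPM (log2 fold change 1.23 ± 0.26, adjusted p = 0.0049). Neither gene's groups overlapped, but Jund missed the threshold without the pairing (adjusted p = 0.0515) and without A1471. Fos read 8.58, 5.22 and 3.77 CPM against 16.6, 1.63 and 1.96 CPM, higher in A1005 and lower in the other lines, and did not pass (adjusted p = 0.832). Jun and Junb did not pass either, with log2 fold changes of -0.66 ± 0.28 and -0.00 ± 0.19. The immediate early factor Egr1 fell from 59.9, 59.8 and 105 to 18, 5.45 and 4.38 CPM (log2 fold change -3.26 ± 0.61, adjusted p = 0.0026) and Egr3 from 5.92, 9.88 and 14.1 to 1.67, 0.188 and 0.226 CPM (log2 fold change -3.65 ± 0.63, adjusted p = 0.00174), and for each gene A1005 kept the most RNA under both inhibitors. Over the whole list of ERK-dependent transcription factors, 12 of 27 tested members were lower and 4 higher (Ets1, Fosl2, Jund and Klf2, each lost without A1471), with a median of -0.43. Without the pairing 7 were lower and 0 higher, and without A1129 8 were lower and 2 higher, and without A1471 9 were lower and 0 higher.

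Of 12 tested EGF family genes 5 were lower, 3 ligands and 2 genes that restrain the receptors, 2 receptor genes were higher from low levels, and 5 did not pass. Areg, which encodes the ligand amphiregulin, read 16.4, 8.01 and 6.41 CPM with PD173074 and 0.50, 0.376 and 0.226 CPM with both inhibitors. Each line had under 1 CPM left, and the fold change was -4.84 ± 0.36 (adjusted p = 9.23e-06). Hbegf, another ligand, fell from 19.3, 35.9 and 36.1 to 11.7, 8.84 and 9.58 CPM (log2 fold change -1.49 ± 0.28, adjusted p = 0.00263), a call that was lost without A1471. Ereg, expressed in A1005 alone, fell from 30, 0 and 0.0712 to 8.12, 0 and 0 CPM (log2 fold change -1.91 ± 0.34, adjusted p = 0.002), did not pass without the pairing or with DESeq2, and was not tested without A1005. Errfi1 and Lrig1, which restrain EGF receptors, had log2 fold changes of -0.91 ± 0.21 and -0.64 ± 0.11, and the call of Errfi1 was lost without A1129 or A1471. Egfr rose from 7.68, 0.143 and 2.06 to 19.1, 0.94 and 2.57 CPM (log2 fold change 1.16 ± 0.37, adjusted p = 0.0296) and Erbb3 from 1.87, 0.644 and 0.356 to 2.72, 2.82 and 1.66 CPM (log2 fold change 1.63 ± 0.54, adjusted p = 0.0357), both with overlapping groups, no call without the pairing, and a call lost without A1129 (Egfr also without A1005, Erbb3 also without A1471 and with limma-voom). Without A1471 3 members were lower, without A1129 none was higher, and without the pairing 2 were lower and 0 higher.

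Met RNA was slightly lower with both inhibitors and Fgfr1 RNA did not pass the test. Met, a single row of the table that cannot separate transgene transcripts from those of the endogenous gene, read 8327, 6881 and 4578 CPM with PD173074 and 5979.9, 6920.5 and 2666 CPM with both inhibitors. It was lower in A1005 and A1471 and level in A1129, and its fold change of -0.42 ± 0.15 just passed (adjusted p = 0.0429), a call lost without the pairing (adjusted p = 0.772), without A1005 or A1471, in a fit of only the 6 libraries and with DESeq2 size factors or total counts as the scaling. Fgfr1 read 244, 248 and 246 against 217, 302 and 282 CPM (log2 fold change 0.12 ± 0.13, adjusted p = 0.502), and the FGF receptor adaptor Frs2 did not pass either (log2 fold change 0.24 ± 0.10, adjusted p = 0.0823). The docking protein Gab1, which links Met to PI3 kinase, rose in each line, from 14.9, 22 and 17.1 to 21, 58.8 and 40.7 CPM (log2 fold change 1.08 ± 0.17, adjusted p = 0.00111), as did the decoy receptor Fgfrl1, from 10.8, 40.8 and 36.9 to 17, 89.4 and 84.5 CPM (log2 fold change 1.02 ± 0.17, adjusted p = 0.0015). Of 19 tested Met and FGF receptor signalling components 7 were higher and 3 lower. None was called without the pairing, 2 were higher without A1129, 3 were higher without A1471 and 1 was lower without A1005. Among 19 other tested receptor kinases 4 were higher and 3 lower, with 2 higher without A1005, 1 without A1129 and 1 without A1471. These calls made up 36.8% of the list, against 39.8% of all tested genes. Epha2, an ephrin receptor whose transcription follows ERK, fell from 80.4, 127 and 93 to 18.6, 4.2 and 6.64 CPM (log2 fold change -3.46 ± 0.41, adjusted p = 2.10e-04) with no overlap and was the 1 called without the pairing. Ddr1, a collagen receptor, rose from 161, 30.5 and 87.1 to 279.6, 102 and 228 CPM (log2 fold change 1.35 ± 0.23, adjusted p = 0.00162), while Axl (0.03 ± 0.18), Igf1r (0.14 ± 0.15) and Pdgfra (0.20 ± 0.24) did not pass.

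**Figure D1:**
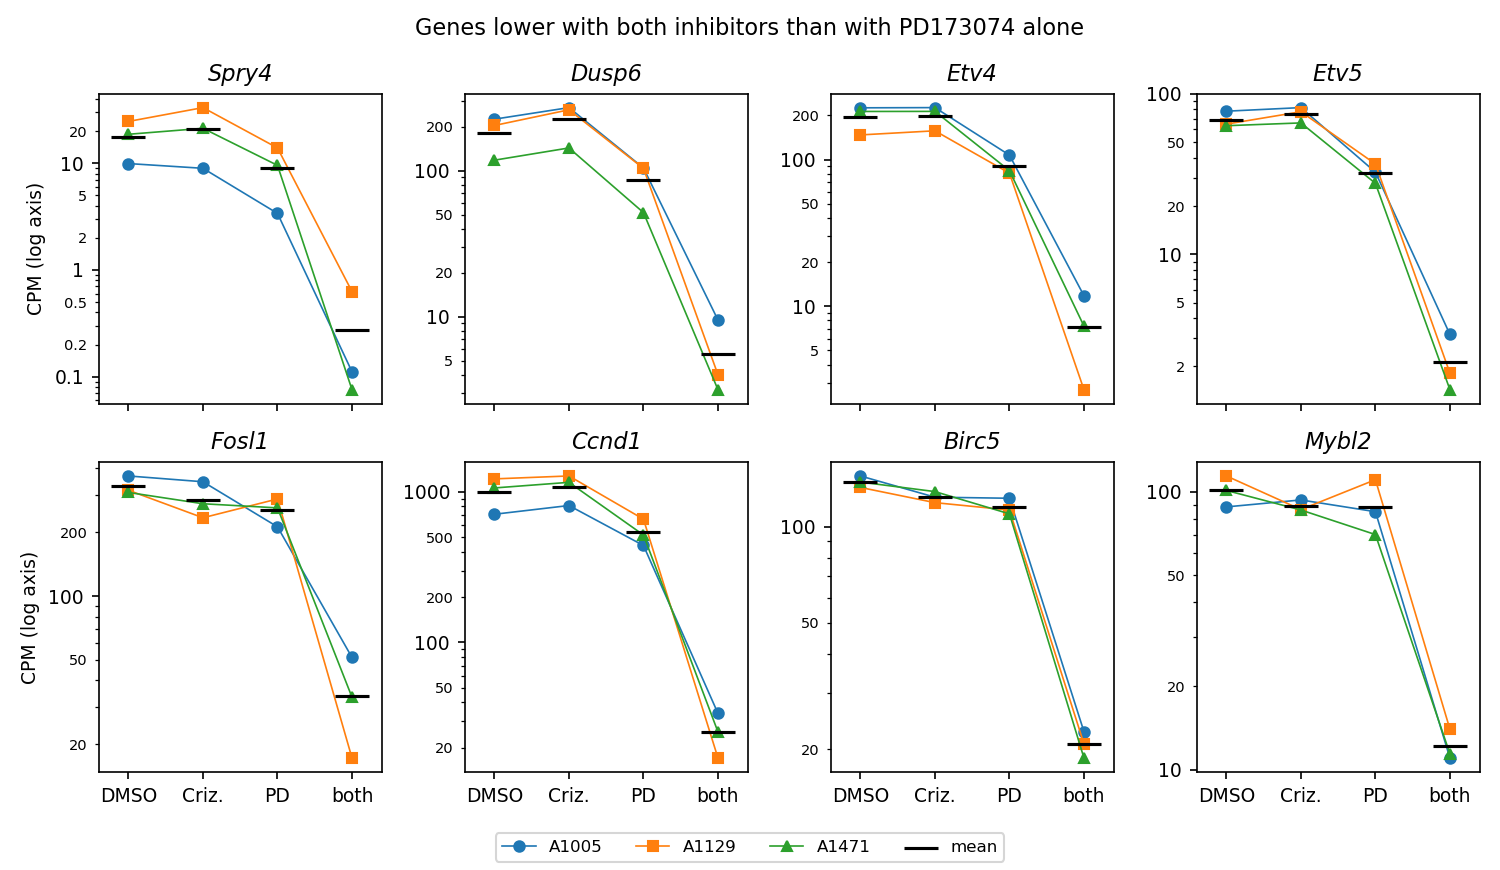
CPM on a log axis of 8 genes that were lower with both inhibitors, in the 4 treatments (Criz., Crizotinib; PD, PD173074), with 1 marker for each cell line, a line joining libraries of the same cell line and a black bar at the mean of 3. In every panel the 3 libraries with both inhibitors lie below the 9 others, as for Ccnd1, which stayed at or below 33.9 CPM with both inhibitors.

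Genes of cell division were lower in nearly every case. Ccnd1, which encodes cyclin D1 and lies at chr7:144929931-144939925 (ENSMUSG00000070348), read 440.1, 658 and 517 CPM with PD173074 and 33.9, 17.1 and 25.5 CPM with both inhibitors. All 3 lines lost most of it (log2 fold change -4.35 ± 0.31, adjusted p = 6.09e-06). The cyclin Ccne2 fell from 36.4, 42.9 and 40.3 to 10.3, 9.65 and 3.62 CPM (log2 fold change -2.32 ± 0.32, adjusted p = 5.00e-04) and the E2F family member E2f8 from 55.9, 124 and 88.1 to 6.28, 12 and 7.85 CPM (log2 fold change -3.33 ± 0.17, adjusted p = 1.53e-06). The inhibitors of cyclin D kinases Cdkn2b and Cdkn2a rose, Cdkn2b from 44.5, 21.5 and 59.9 to 122, 74.3 and 127 CPM (log2 fold change 1.43 ± 0.13, adjusted p = 4.52e-05) and Cdkn2a by 0.66 ± 0.10, although neither passed without the pairing (adjusted p = 0.102 and 0.403). The inhibitors Cdkn1a and Cdkn1b did not pass and were highest in A1129 under both inhibitors (51.9, 109 and 48.4 CPM and 69.8, 188 and 78.8 CPM). Over the list of G1 cyclins, kinases and inhibitors 13 of 23 tested members were lower and 3 higher, and 9 were lower without the pairing.

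All 46 tested genes of DNA replication and nucleotide synthesis were lower, with a median of -1.45, and 36 of them were lower without the pairing. All 40 tested mitosis genes were lower as well, with a median of -1.84, and 35 without the pairing. With any 1 line left out, 45 to 46 and 40 of them were lower. Tk1, the thymidine kinase of S phase, read 106, 95 and 58.9 CPM with PD173074 and 15.3, 5.58 and 3.62 CPM with both inhibitors (log2 fold change -3.47 ± 0.32, adjusted p = 3.53e-05). Rrm2, a subunit of ribonucleotide reductase, fell from 203, 256 and 182 to 34.8, 33.8 and 15.2 CPM (log2 fold change -2.96 ± 0.20, adjusted p = 5.45e-06), and Cdc6, which loads the replicative helicase, from 60.8, 57.2 and 58.9 to 13, 9.84 and 9.28 CPM (log2 fold change -2.45 ± 0.16, adjusted p = 4.18e-06). None of these genes had overlapping groups. Birc5, which encodes the mitotic protein survivin, had the smallest p of all genes, with 123, 113 and 109.9 CPM against 22.7, 20.8 and 18.8 CPM (log2 fold change -2.47 ± 0.09, adjusted p = 9.13e-07). Its 3 values lay close together in each group. Aurkb, a kinase of the same mitotic complex, fell from 70.6, 71.8 and 74.8 to 12.6, 11.6 and 16 CPM (log2 fold change -2.45 ± 0.11, adjusted p = 1.35e-06), and Mybl2, a transcription factor for late cell-cycle genes, from 84.9, 111 and 70.2 to 11, 14 and 11.4 CPM (log2 fold change -2.86 ± 0.14, adjusted p = 1.53e-06). Trip13 (-2.22 ± 0.10), Pimreg (-1.99 ± 0.09) and Hmga2 (-2.21 ± 0.10) completed the 5 genes with the smallest p, after Birc5 and Aurkb. The proliferation marker Mki67 read 289, 568 and 344 against 42.1, 186 and 108 CPM, lower in each line with no overlap (log2 fold change -1.99 ± 0.24, adjusted p = 2.33e-04), but missed the threshold without the pairing (adjusted p = 0.0787). The median within-line log2 difference of the mitosis list in A1005, A1129 and A1471 was -2.32, -1.61 and -1.66. In RNA from whole cultures, fewer dividing cells and less of these RNAs per cell cannot be told apart.

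The promoters of these genes show the letters by which cell-cycle genes are known. The windows are 300 bases of RefSeq (build GRCm38.p6), 250 before and 50 after a transcription start, and they matched 10035 of 13833 tested symbols in 12828 windows. A total of 8 motifs was searched on both strands. TTTGAA is the core of the homology region known from cell-cycle genes. The E2F family of factors is known for TTGGCG, and the heterotrimer NF-Y for the letters CCAAT, which on the opposite strand can share letters with the E2F motif. Helix-loop-helix factors, Tfeb among them, are known for CACGTG, and ETS factors such as the PEA3 group for CCGGAA. The remaining motifs were TGACTCA of AP-1 dimers, the CRE core TGACGT of Creb and its relatives, and TGTTTAC of forkhead factors. Among mitosis genes, 33 of 40 matched, and 65.7% of their 35 windows held TTTGAA against 11.9% of the windows of tested genes and 17.9% of all windows in the table. CCAAT was in 74.3% of them against 38.2% of tested and 37.4% of all windows. DNA replication windows held CCAAT in 62.2%, and those of the other lists in 25.9% to 50%. Among DNA replication genes, 38 of 46 matched, and 42.2% of their 45 windows held TTGGCG against 11.7% of tested and 7.26% of all windows. TTGGCG was also in 23.8% of the windows of FoxO genes, which rose, 22.9% of mitosis and 16.7% of ERK feedback windows. For ribosome biogenesis, lysosome and ERK-dependent transcription factor genes it was 11.1%, 9.38% and 8%. Over all called genes the shares were closer to the background: TTGGCG was in 17.3% of windows of genes called lower and 8.73% of those called higher, and TTTGAA in 15.6% and 10.7%. CCGGAA was in 16.7% of the 12 windows of the ERK feedback inhibitors against 27.2% of tested and 14.9% of all windows. Windows of ERK-dependent transcription factors, 25 for 17 of 27 members, held TGACGT in 24% against 11.4% of tested and 7.51% of all windows. That share was not particular to this list. TGACGT was in 25.9% of ribosome biogenesis, 20% of DNA replication and 16.7% of ERK feedback windows. For lysosome, mitosis and FoxO genes it was 9.38%, 5.71% and 4.76%. None of the windows of ERK-dependent transcription factors held TGACTCA, which was in 3.99% of tested and 5.2% of all windows. The forkhead letters TGTTTAC were in 14.3% of the 21 windows of FoxO factors and targets (17 of 20 matched), which is 3 windows, against 2.44% of tested and 3.65% of all windows. They were also in 8.33% of ERK feedback, 8% of ERK-dependent transcription factor, 5.71% of mitosis and 4.44% of DNA replication windows. Ribosome biogenesis windows held them in 3.7% and lysosome windows in 0%. Each of these shares rests on few windows. A match is a description of the letters and not of a bound site. Below are the windows of the mitotic activators Cdc20 (chr4:118437294-118437593, minus strand) and Plk1 (chr7:122159185-122159484, plus strand), with TTTGAA in capitals, and of the helicase subunits Mcm3 (chr1:20820263-20820562, minus strand) and Mcm6 (chr1:128359656-128359955, minus strand), with TTGGCG on either strand in capitals, each written 5′ to 3′ on the gene's strand.
Cdc20: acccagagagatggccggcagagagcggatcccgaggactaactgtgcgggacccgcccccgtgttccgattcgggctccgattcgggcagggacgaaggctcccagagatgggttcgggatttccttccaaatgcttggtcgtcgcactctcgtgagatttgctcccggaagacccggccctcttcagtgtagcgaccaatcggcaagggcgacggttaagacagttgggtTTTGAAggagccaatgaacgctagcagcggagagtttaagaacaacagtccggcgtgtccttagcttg
Plk1: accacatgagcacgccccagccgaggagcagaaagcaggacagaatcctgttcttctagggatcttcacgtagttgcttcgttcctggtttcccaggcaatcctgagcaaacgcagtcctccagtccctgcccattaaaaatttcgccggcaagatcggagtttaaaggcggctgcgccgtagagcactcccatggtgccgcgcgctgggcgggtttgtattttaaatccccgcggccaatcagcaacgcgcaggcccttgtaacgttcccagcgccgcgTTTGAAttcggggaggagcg
Mcm3: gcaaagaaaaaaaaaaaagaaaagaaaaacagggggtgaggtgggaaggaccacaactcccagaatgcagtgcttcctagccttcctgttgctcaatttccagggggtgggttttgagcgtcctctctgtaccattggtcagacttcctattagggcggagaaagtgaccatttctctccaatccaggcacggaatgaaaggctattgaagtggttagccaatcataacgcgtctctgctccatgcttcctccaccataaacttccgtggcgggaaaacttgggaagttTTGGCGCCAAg
Mcm6: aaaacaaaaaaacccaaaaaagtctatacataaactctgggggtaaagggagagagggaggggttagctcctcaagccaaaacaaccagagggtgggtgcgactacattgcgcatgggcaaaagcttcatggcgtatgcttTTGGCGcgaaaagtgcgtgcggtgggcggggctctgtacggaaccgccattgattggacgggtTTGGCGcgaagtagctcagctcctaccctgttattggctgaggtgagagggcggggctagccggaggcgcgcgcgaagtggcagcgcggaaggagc
These genes fell with both inhibitors, Cdc20 from 155, 139 and 137 to 30.8, 42 and 46.2 CPM (log2 fold change -1.87 ± 0.14, adjusted p = 1.01e-05), Plk1 from 101, 162 and 89.1 to 19.6, 41.3 and 20.7 CPM (log2 fold change -2.13 ± 0.14, adjusted p = 4.85e-06), Mcm3 from 239, 241 and 281 to 69.6, 66.9 and 85 CPM (log2 fold change -1.78 ± 0.08, adjusted p = 1.35e-06) and Mcm6 from 280.4, 285 and 311 to 86.3, 94.9 and 121 CPM (log2 fold change -1.55 ± 0.11, adjusted p = 5.28e-06), each in all 3 lines and with no overlap.

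FoxO targets rose. Of 20 tested FoxO factors and targets 16 were higher and 0 lower, with a median of 1.24, and without the pairing 3 were higher (Klhl24, Tsc22d3 and Pik3ip1). The count was 8 without A1129 and 9 without A1471. Pik3ip1, an inhibitor of PI3 kinase, read 11.6, 11.9 and 26.8 CPM with PD173074 and 33.6, 83.2 and 116 CPM with both inhibitors. Every line rose and the groups did not overlap (log2 fold change 2.13 ± 0.36, adjusted p = 0.00154). Fbxo32, the ubiquitin ligase atrogin-1 of muscle wasting, rose from 26.5, 4.87 and 28.9 to 83.9, 68.6 and 122 CPM (log2 fold change 2.49 ± 0.37, adjusted p = 8.19e-04) and was not called without the pairing (adjusted p = 0.14). The insulin receptor substrate Irs1 rose from 12.6, 4.44 and 12.7 to 33.5, 24.6 and 41.1 CPM (log2 fold change 1.87 ± 0.34, adjusted p = 0.00241), a call lost without A1129 and without the pairing. The factors Foxo1 (0.29 ± 0.16) and Foxo3 (0.26 ± 0.17) themselves did not pass, and Txnip read 196, 63.3 and 96.4 against 124, 50.5 and 114 CPM, higher in A1471 and lower in the other lines.

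Several cell death genes of the BH3-only kind rose with both inhibitors. Bmf, which frees Bax by binding Bcl2 proteins and lies at chr2:118528757-118549687 (ENSMUSG00000040093), read 28.7, 8.87 and 38.6 CPM with PD173074 and 111, 119.5 and 126 CPM with both inhibitors. The lines differed several-fold before and were level after, and the groups did not overlap (log2 fold change 2.4 ± 0.35, adjusted p = 7.16e-04). Bcl2l11, which encodes Bim, rose from 32.3, 41.4 and 37.1 to 50.6, 110.3 and 80.5 CPM with no overlap (log2 fold change 1.08 ± 0.17, adjusted p = 9.91e-04). Both passed without the pairing. Bbc3 (Puma), Bad and Bid rose by 0.91 ± 0.18, 0.66 ± 0.11 and 0.48 ± 0.15 with the pairing only. The call of Bbc3 was lost without A1129 or A1471 and that of Bid without A1005 or A1471. Bcl2l1 (-0.01 ± 0.20), Mcl1 (-0.05 ± 0.15) and Bcl2 (-0.95 ± 0.38), the survival members, did not pass, although Bcl2 read 19.6, 13.1 and 12.1 against 19.2, 4.95 and 2.64 CPM and was under the PD173074 level in A1129 and A1471. Bnip3 was lower (log2 fold change -0.61 ± 0.15, adjusted p = 0.01), a call lost without A1005 or A1471. In all 5 of 15 tested members were higher and 1 lower, with a median of -0.02. That is 40% called, against 39.8% of all tested genes. Without the pairing 2 were higher and 0 lower, without A1005 4 and 3, and without A1471 3 and 0.

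**Figure D2:**
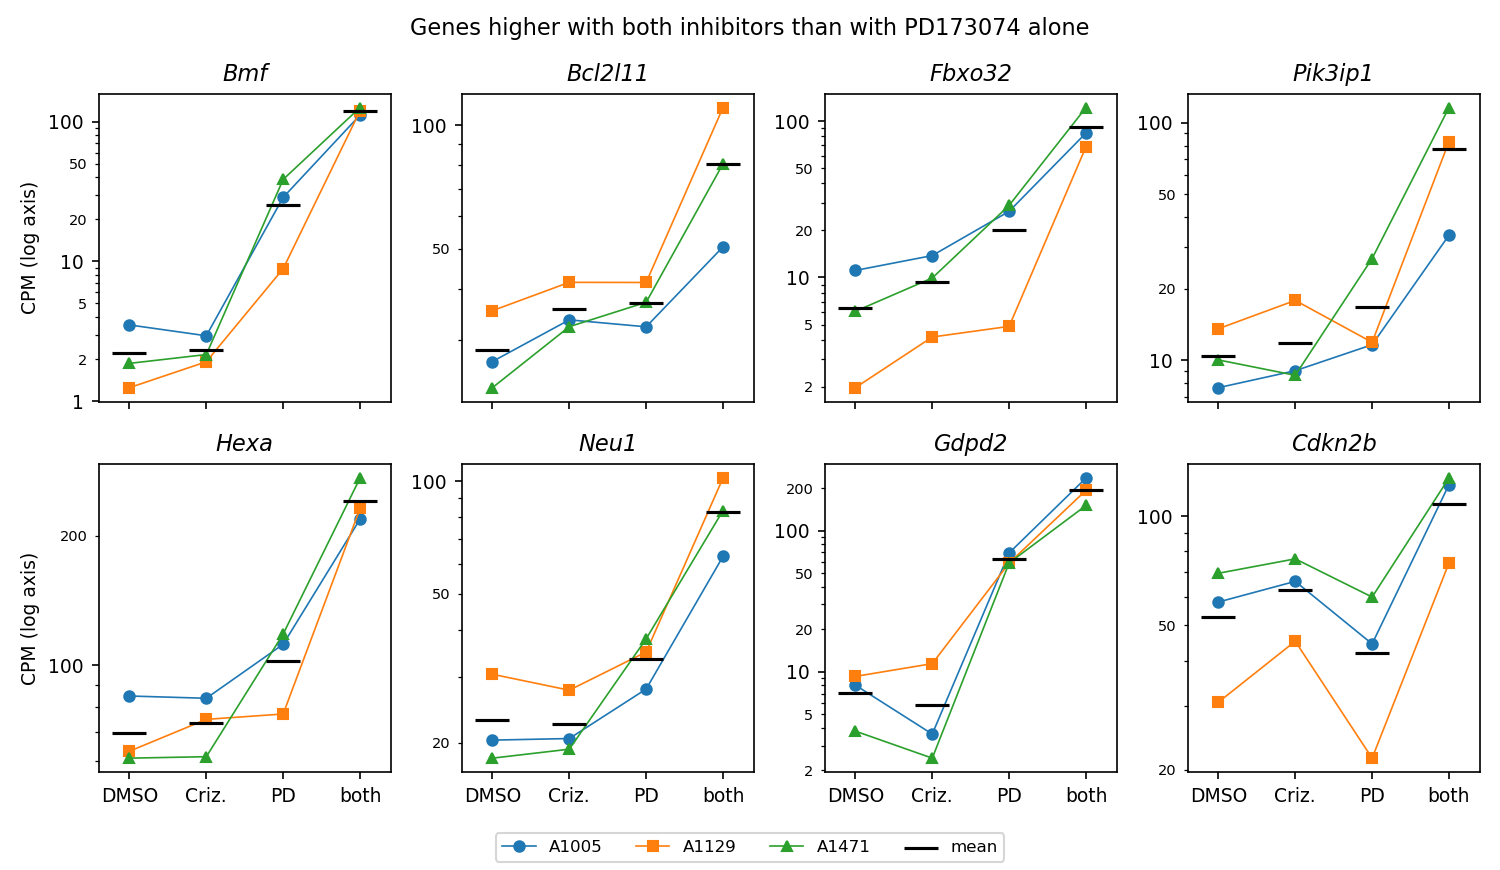
CPM on a log axis of 8 genes that were higher with both inhibitors, in the 4 treatments (Criz., Crizotinib; PD, PD173074), with 1 marker for each cell line, a line joining libraries of the same cell line and a black bar at the mean of 3. Bmf, Fbxo32, Pik3ip1, Hexa, Neu1, Bcl2l11 and Gdpd2 are highest with both inhibitors in each line, as is Cdkn2b, which is lowest with PD173074 alone.

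Lysosome and autophagy genes rose broadly by modest amounts. Of 33 tested members 27 were higher and 1 lower, with a median of 0.87, and 6 were higher without the pairing. Hexa, a subunit of the lysosomal enzyme hexosaminidase, read 112, 77.1 and 118 CPM with PD173074 and 219, 231 and 273 CPM with both inhibitors (log2 fold change 1.25 ± 0.17, adjusted p = 5.60e-04), and the sialidase Neu1 27.8, 34.9 and 37.9 against 62.9, 102 and 83.4 CPM (log2 fold change 1.28 ± 0.15, adjusted p = 2.24e-04). Neither gene had overlapping groups. Sqstm1, the autophagy receptor p62, went from 478, 359.9 and 433 to 1088, 926 and 776 CPM (log2 fold change 1.13 ± 0.12, adjusted p = 9.08e-05), and Map1lc3b, which coats autophagosomes, from 134, 129.9 and 134 to 228, 317 and 242 CPM (log2 fold change 0.97 ± 0.12, adjusted p = 3.34e-04). The membrane protein Lamp1 rose from 627, 902 and 882 to 954, 1682 and 1178 CPM (log2 fold change 0.64 ± 0.10, adjusted p = 0.00114) and the proton pump subunit Atp6v0d1 from 71.9, 81.5 and 86.1 to 139.6, 261 and 172 CPM (log2 fold change 1.19 ± 0.19, adjusted p = 0.0012), both without a call in the unpaired test. The rise was largest in A1129, where the list's median was 1.16, against 0.53 in A1005 and 0.75 in A1471. Of the factors for lysosome genes, Tfeb did not pass (0.03 ± 0.16) and Mitf was lower (log2 fold change -0.47 ± 0.16, adjusted p = 0.037), a call lost without A1129 or A1471, without the pairing, with total counts and in a fit of only the 6 libraries. The E-box letters CACGTG, the core of the motif known for lysosome genes, were in 28.1% of the 32 windows of the 25 members matched of 33, against 9.84% of tested and 7.15% of all windows. Over all genes called higher the share was 11.4% and over those called lower 10.5%, and it was 23.8% for FoxO factors and targets, 18.5% for ribosome biogenesis factors, which were lower, and 16% for ERK-dependent transcription factors. The windows of Lamp1 (chr8:13158911-13159210, plus strand) and Atp6v0d1 (chr8:105566015-105566314, minus strand) are written 5′ to 3′ on the gene's strand with CACGTG in capitals.
Lamp1: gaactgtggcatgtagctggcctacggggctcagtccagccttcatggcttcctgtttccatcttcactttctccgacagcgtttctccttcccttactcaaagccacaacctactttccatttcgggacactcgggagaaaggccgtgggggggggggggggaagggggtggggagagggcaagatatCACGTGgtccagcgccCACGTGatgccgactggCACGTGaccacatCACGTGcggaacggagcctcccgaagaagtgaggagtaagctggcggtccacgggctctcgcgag
Atp6v0d1: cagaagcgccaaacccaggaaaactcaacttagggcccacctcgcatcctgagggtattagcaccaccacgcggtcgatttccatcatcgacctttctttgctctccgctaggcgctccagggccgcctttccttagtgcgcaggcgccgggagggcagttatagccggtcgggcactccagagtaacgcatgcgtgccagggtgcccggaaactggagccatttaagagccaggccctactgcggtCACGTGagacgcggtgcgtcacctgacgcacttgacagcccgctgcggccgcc

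**Figure D3:**
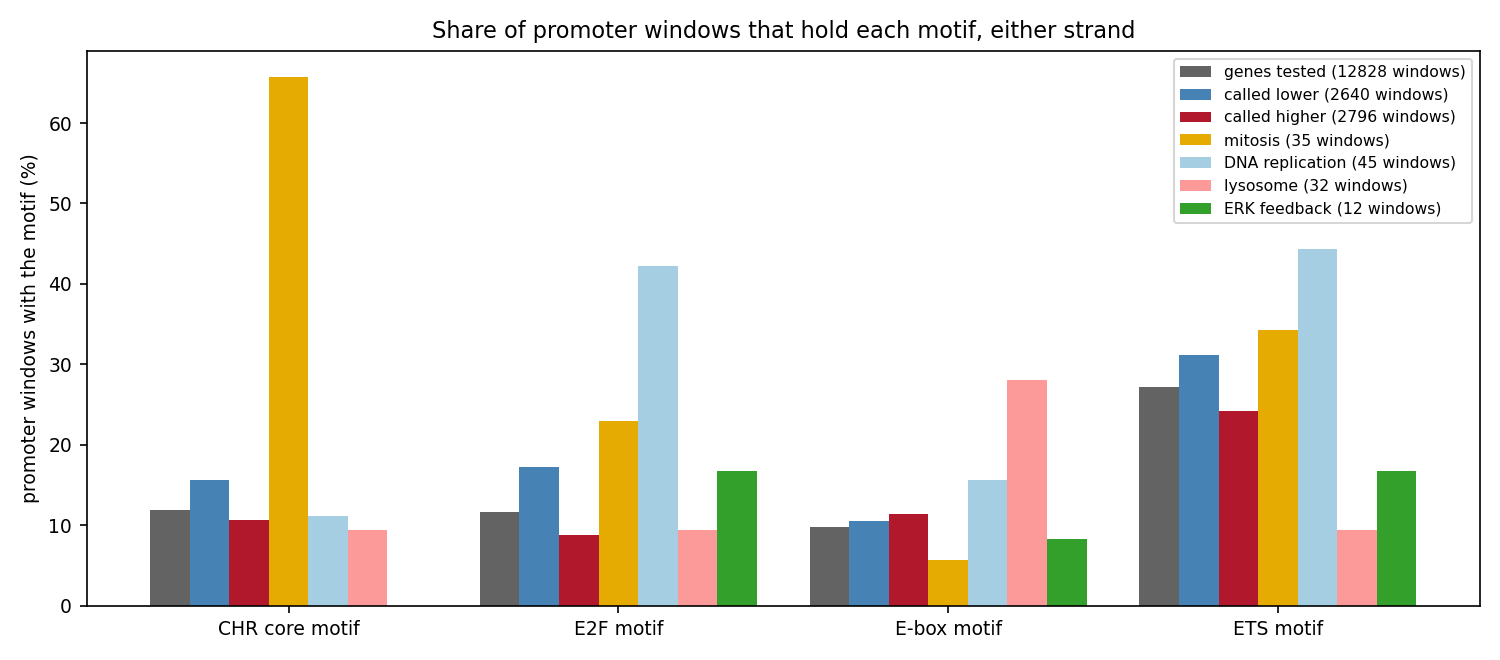
Share of 300-base promoter windows that hold the cell-cycle homology region core, E2F, E-box and ETS motifs on either strand, in % of windows from 0, for tested genes, genes called in each direction and 4 lists, with the number of windows in the legend. Mitosis stands at 65.7% for the homology region core, DNA replication at 42.2% for the E2F motif and lysosome genes at 28.1% for the E-box, against 11.9%, 11.7% and 9.84% of the windows of tested genes.

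Ribosome biogenesis genes were lower in nearly every case, 12 of 23 glycolysis genes were lower and few cholesterol genes passed the test. Of 30 tested ribosome biogenesis factors 29 were lower, with a median of -0.95, and 11 without the pairing. Nop56, a core protein of the particles that modify ribosomal RNA, read 255, 292 and 212 CPM with PD173074 and 151, 81.8 and 94.3 CPM with both inhibitors (log2 fold change -1.23 ± 0.18, adjusted p = 8.13e-04), with no overlap. Tcof1, which acts in ribosomal RNA transcription, went from 141, 219 and 332 to 46.5, 60.2 and 148 CPM (log2 fold change -1.54 ± 0.12, adjusted p = 1.29e-05) with overlapping groups and no call without the pairing. Myc, a driver of such genes, read 312, 429.6 and 555 against 217, 189 and 449 CPM (log2 fold change -0.64 ± 0.19, adjusted p = 0.0211), lower in each line but not called without the pairing. In glycolysis 12 of 23 tested gene identifiers were lower and 1 higher (Ldhb, lost without A1129), with a median of -0.47, and 1 was lower without the pairing (Pgam1, log2 fold change -0.79 ± 0.11, adjusted p = 5.28e-04). The symbol Aldoa stands for 2 of these identifiers, whose reads may be shared. Slc2a1, the glucose transporter, fell from 324, 110.3 and 172 to 167, 42.6 and 66.3 CPM (log2 fold change -1.22 ± 0.12, adjusted p = 5.67e-05), and Ldha, which makes lactate, from 2381, 1586 and 1702 to 1464, 717 and 898 CPM (log2 fold change -0.92 ± 0.12, adjusted p = 3.34e-04). In both genes A1005 kept the highest level. Cholesterol and fatty acid synthesis had 2 of 27 tested members lower, Elovl6 among them, and 0 higher, and 0 of either kind without the pairing. The count of lower members was 0 without A1005, 6 without A1129 and 1 without A1471. The medians of that list by line were -0.32, 0.28 and -0.56, again with A1005 first and A1471 last. Of the reference genes of the study's quantitative PCR, Hprt fell from 113, 138 and 163 to 88.4, 87 and 71.8 CPM (log2 fold change -0.71 ± 0.16, adjusted p = 0.00567), a call lost without A1129 and without the pairing, and Gapdh did not pass (log2 fold change -0.44 ± 0.19, adjusted p = 0.0909), being lower in A1005 and A1129 and higher in A1471.

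**Figure D4:**
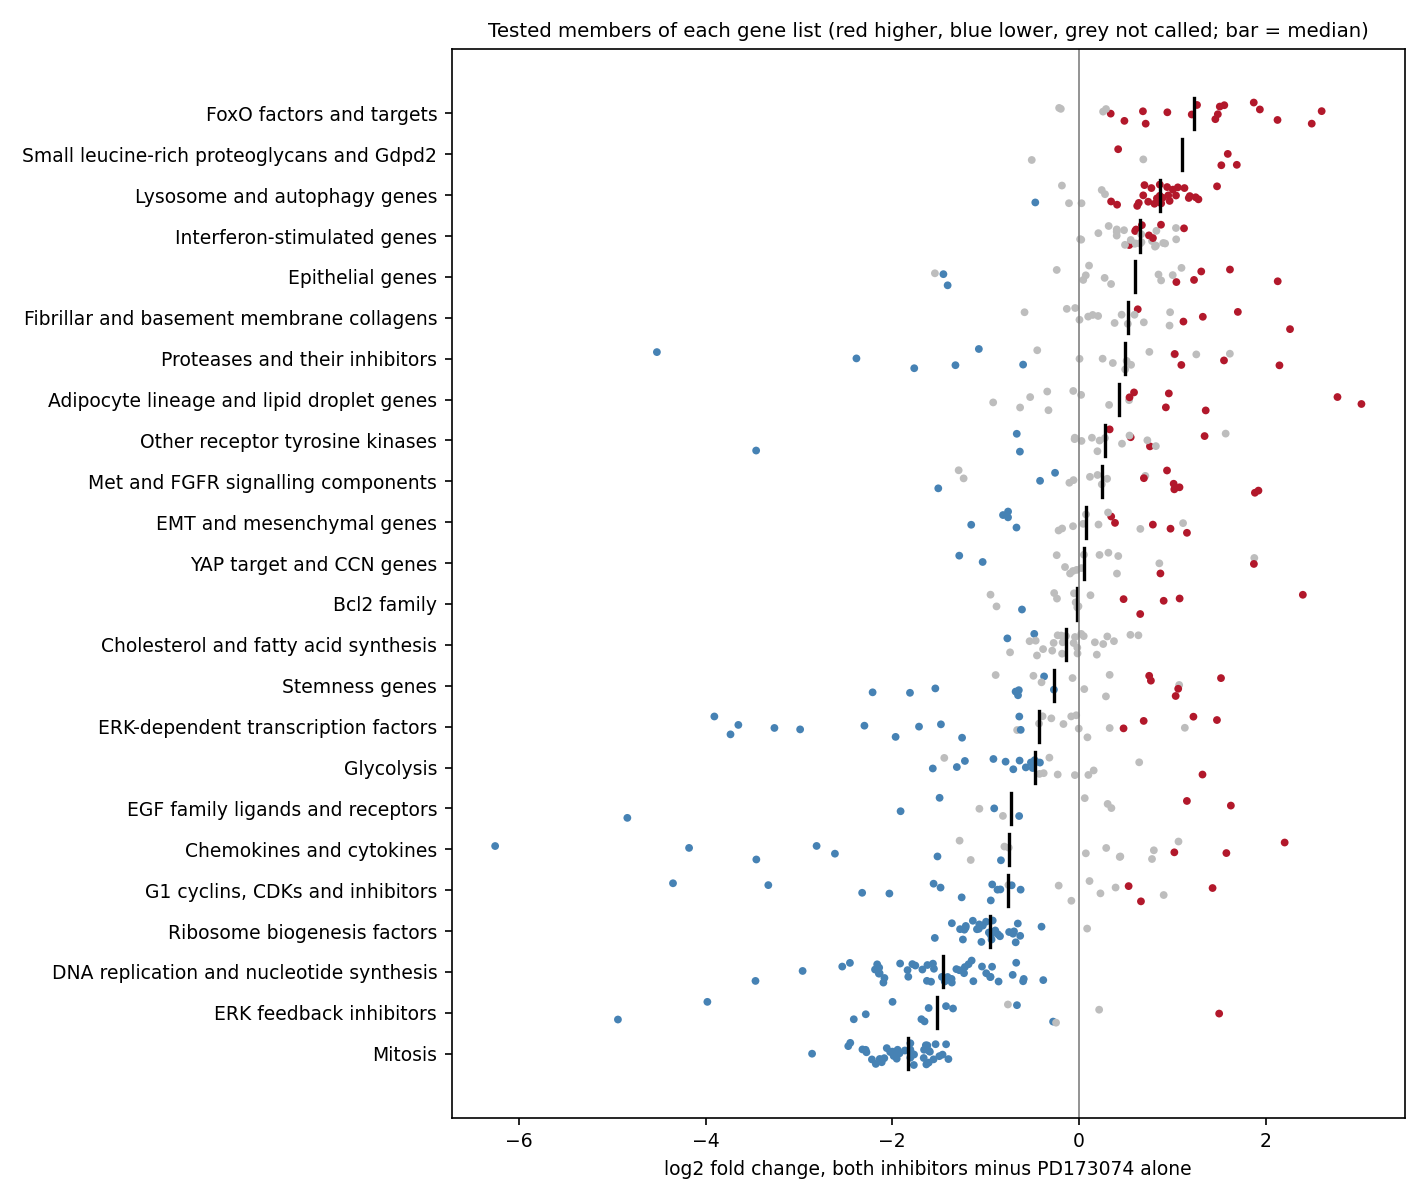
Log2 fold change of both inhibitors over PD173074 alone for each tested member of 24 gene lists, as 1 dot a gene (red called higher, blue called lower and grey not called in the paired edgeR test), with a black bar at the list's median and lists ordered by it. Mitosis (median -1.84) and DNA replication (-1.45) lie wholly below 0, and FoxO targets (1.24) and lysosome genes (0.87) mostly above it.

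Genes of mesenchymal state and stemness moved in both directions. Twist1, a factor that drives epithelial-mesenchymal transition, read 84.5, 91.7 and 91.5 CPM with PD173074 and 61.1, 53.9 and 44.5 CPM with both inhibitors. It fell in each line and the groups did not overlap (log2 fold change -0.76 ± 0.11, adjusted p = 5.55e-04). Snai1 went from 144, 28.1 and 25.2 to 89.6, 12.3 and 18.4 CPM (log2 fold change -0.76 ± 0.16, adjusted p = 0.00418), a call lost without A1129, while Zeb1 (0.04 ± 0.10) and Vim (-0.06 ± 0.12) did not pass. Sparc, a matrix protein, rose from 1072, 467 and 664 to 1792, 1140.3 and 1263 CPM (log2 fold change 0.98 ± 0.31, adjusted p = 0.0313), lost without A1005 or A1129. Of 19 tested mesenchymal genes 5 were higher and 5 lower, and without the pairing 1 (Twist1) was lower. Without A1129 1 was higher and 3 lower, and without A1471 2 and 3. The called share of epithelial genes was 38.9%, against 39.8% of all tested genes. Epithelial genes had 5 of 18 tested members higher and 2 lower, 2 higher without A1129, 3 higher and 1 lower without A1471, 1 lower without A1005, and 0 without the pairing. Their levels were low, as for Cldn1 at 0.0604, 0.716 and 1.14 CPM against 0.111, 3.95 and 4.83 CPM and Krt7 at 0.725, 4.37 and 2.85 against 2.17, 9.96 and 6.04 CPM, and Krt8 and Krt18 did not pass. The call of Cldn1 was lost without A1129 or A1471 and with limma-voom. Among stemness genes, the hyaluronan receptor Cd44 fell from 320.3, 349 and 373 to 176, 74.6 and 111 CPM (log2 fold change -1.54 ± 0.27, adjusted p = 0.00187) and the chromatin protein Hmga2 from 342, 226 and 189 to 84.9, 44.3 and 38.6 CPM (log2 fold change -2.21 ± 0.10, adjusted p = 1.35e-06), both with no overlap and both called without the pairing. Sox4 rose from 203, 376 and 612 to 607, 1069 and 1724 CPM (log2 fold change 1.52 ± 0.27, adjusted p = 0.0021) and Notch2 from 206, 138 and 203 to 274, 379 and 435 CPM (log2 fold change 1.04 ± 0.21, adjusted p = 0.00383), neither called without the pairing and Notch2 not without A1471. Hes1, a target of Notch, read 29.7, 4.37 and 3.84 against 25.3, 1.0 and 0.83 CPM and did not pass (adjusted p = 0.205). Aldh1l1 read 1.75, 0.143 and 1.35 against 3.78, 0.188 and 3.02 CPM and did not pass (adjusted p = 0.164). In all 8 of 21 tested stemness genes were lower and 5 higher, with 2 lower and 0 higher without the pairing, 3 lower without A1471 and 3 higher without A1129.

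Called shares of the matrix lists were 66.7% for small proteoglycans with Gdpd2, 47.6% for proteases and their inhibitors and 26.3% for collagens. Of all tested genes 39.8% were called. Calls of proteoglycans with Gdpd2 and of collagens were all higher, and those of proteases went both ways. Gdpd2, a phosphodiesterase gene counted by the study among differentiation genes, read 69.5, 59 and 59 CPM with PD173074 and 236, 193 and 151 CPM with both inhibitors, with no overlap (log2 fold change 1.59 ± 0.32, adjusted p = 0.00394), but was not called without the pairing (adjusted p = 0.11). The proteoglycan gene Ogn rose from 35.5, 12.5 and 15.4 to 111, 79.3 and 17.4 CPM, mostly in A1005 and A1129 (log2 fold change 1.53 ± 0.41, adjusted p = 0.0147), and its call was lost without either of these lines and with DESeq2, limma-voom or no pairing. Of 6 tested members of the list of small proteoglycans with Gdpd2 4 were higher. The count was 1 without A1005, 1 without A1129, 2 with DESeq2, 1 with limma-voom and 0 without the pairing. Of 19 tested collagen genes 5 were called, all higher (26.3%, against 19.6% of all genes called higher), 3 without A1129 and 0 without the pairing. The matrix glycoprotein gene Tnc was lower (log2 fold change -1.15 ± 0.28, adjusted p = 0.00958) and not called without the pairing. The basement membrane chains Col4a5 and Col4a6, which lie head to head, rose by 1.12 ± 0.21 and 1.33 ± 0.18, and Col4a6 stayed at or below 0.50 CPM in A1005. Among proteases, Plaur, the urokinase receptor, fell from 57.4, 77.2 and 44.8 to 23.8, 5.2 and 6.79 CPM (log2 fold change -2.38 ± 0.42, adjusted p = 0.002), and the inhibitor Timp1 from 161, 97.9 and 80.9 to 75.1, 34.2 and 30.7 CPM (log2 fold change -1.32 ± 0.14, adjusted p = 1.01e-04). The membrane protease Mmp14 rose from 165, 122 and 433 to 263, 304 and 1003 CPM (log2 fold change 1.1 ± 0.23, adjusted p = 0.00494) and its partner Timp2 from 832, 749 and 1409 to 1214, 1957 and 2914 CPM (log2 fold change 1.03 ± 0.25, adjusted p = 0.0092), both lost without A1129. In all 6 of 21 tested members were lower and 4 higher, 2 were higher without A1129, and 1 (Plaur) was lower without the pairing. YAP target and CCN genes had 2 of 17 tested members higher and 2 lower (1 and 0 without A1129, 1 lower without A1471 and 0 without the pairing), with Ccn1 (0.05 ± 0.44) and Ccn2 (0.32 ± 0.22) not passing. That is 23.5% called, against 39.8% of all tested genes.

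Of 16 tested adipocyte lineage and lipid droplet genes 7 were higher (43.8%, against 19.6% of all genes called higher) and 9 did not pass. Plin4, a droplet coat protein, read 6.29, 21.9 and 0.641 CPM with PD173074 and 24.1, 288 and 1.21 CPM with both inhibitors, and A1129 stood far above the other lines (log2 fold change 2.77 ± 0.49, adjusted p = 0.00201). Pnpla2, the triglyceride lipase, rose by a like amount in each line, from 22.1, 43.7 and 37.8 to 57.4, 129 and 82.4 CPM (log2 fold change 1.36 ± 0.10, adjusted p = 8.05e-06). Ptgds, which makes prostaglandin D, went from 2.48, 9.59 and 2.85 to 12.9, 159 and 14.8 CPM (log2 fold change 3.03 ± 0.38, adjusted p = 3.17e-04). None of these passed without the pairing. None of the 16 was lower, 3 were higher without A1129, and Plin3 alone passed without the pairing (log2 fold change 0.93 ± 0.19, adjusted p = 0.00417). Pparg, the fat cell regulator, was near 0 in A1005 and A1471 and read 0, 2.36 and 0 against 0.111, 0.94 and 0 CPM.

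Several secreted signals fell steeply, from levels that differed between lines. Csf3, which encodes the growth factor G-CSF for neutrophils, read 117, 124 and 79.3 CPM with PD173074 and 23.1, 2.44 and 0.679 CPM with both inhibitors (log2 fold change -4.18 ± 0.61, adjusted p = 7.07e-04). A1005 kept the most, the groups did not overlap, and the unpaired adjusted p was 0.089. Il33, an alarm cytokine, fell from 204, 11.6 and 2.14 to 17.1, 1.0 and 0.528 CPM (log2 fold change -3.46 ± 0.38, adjusted p = 1.25e-04), with A1005 far above the other lines in both groups. Il24 fell from 2.9, 15.5 and 5.34 to 0.0556, 0.125 and 0.151 CPM, which were 1, 2 and 2 counts (log2 fold change -6.25 ± 0.58, adjusted p = 4.26e-05), and was the member called without the pairing. Ccl5 rose from 3.69, 0.358 and 5.48 to 11.1, 0.94 and 18.6 CPM (log2 fold change 1.58 ± 0.38, adjusted p = 0.00891), lost without A1005 or A1471. Of 21 tested chemokines and cytokines 7 were lower and 3 higher, with 1 higher without A1005 and 1 without A1471. Interferon-stimulated genes had 8 of 31 tested members higher and 0 lower, with a median of 0.66, 5 higher without A1129 and 1 (Ddx58) without the pairing. Their called share was 25.8%, against 39.8% of all tested genes called and 19.6% called higher. Ddx58, which encodes the RNA sensor RIG-I, rose from 51.7, 38.6 and 48.8 to 81.4, 96.3 and 77.7 CPM (log2 fold change 0.88 ± 0.16, adjusted p = 0.00207), and B2m, the light chain of MHC class I, from 662, 241 and 364 to 1240.1, 421 and 533 CPM (log2 fold change 0.75 ± 0.13, adjusted p = 0.00207). H2-K1 and H2-D1 were also called higher, but these paralogs can share reads. Isg15 (0.83 ± 0.40) did not pass.

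Ranked among genes that moved one way in the 3 lines and averaged 3 or more in log2 CPM, the 12 largest rises were Angptl4, Rasl12, Ptgds, Cdsn, Plin4, Cryab, Depp1, Fat4, Fbxo32, Tmem44, Lrrc75b and Bmf, with log2 fold changes from 2.40 to 3.82. Of these 12, 5 lost their call when 1 line was left out, and Rasl12 was not tested without A1129 because it then missed the filter on low counts. Angptl4, a secreted inhibitor of lipoprotein lipase, read 32.3, 1.07 and 3.13 CPM against 81.4, 4.89 and 123 CPM and lost its call without A1129, without A1471 and with limma-voom. Rasl12 read 0.181, 6.58 and 0.142 CPM against 0.50, 86.6 and 0.83 CPM, so that A1129 alone rose above 1 CPM. Cryab, a small heat shock protein, went from 76.8, 41.2 and 14.5 to 178, 387 and 77.4 CPM (log2 fold change 2.56 ± 0.71, adjusted p = 0.0172), lost without A1129 or A1471. Calls of Cdsn, Depp1 and Lrrc75b were likewise lost without A1471, that of Cdsn also without A1129, all 3 with limma-voom, and those of Depp1 and Lrrc75b with DESeq2, and of the 12 only Bmf passed without the pairing. The 12 largest falls were Spry4, Areg, Ccnd1, Csf3, Upp1, Dusp6, Etv5, Etv4, Egr3, Tk1, Epha2 and Il33, with log2 fold changes from -4.94 to -3.46. All 12 kept their call with any 1 line left out, and 9 of them passed without the pairing. Upp1, the uridine phosphorylase, fell from 44.6, 27.2 and 13.5 to 4.67, 1.0 and 0.528 CPM (log2 fold change -3.99 ± 0.27, adjusted p = 4.65e-06) and, with Csf3 and Il33, missed the threshold without the pairing (adjusted p = 0.0627).

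A few genes went different ways in different lines. They were picked by a mean level that 1 line can carry, so not all were well expressed in every line. The choline dehydrogenase gene Chdh read 1.21, 67.9 and 1.14 CPM with PD173074 and 1.11, 442 and 0.981 CPM with both inhibitors. It rose in A1129 and fell slightly in the others, where it was near 1 CPM. The paired test called Chdh higher, a call that rested on A1129, without which the log2 fold change was -0.17. The call was also lost without the pairing, with DESeq2 and in a fit of only the 6 libraries. Ndrg1, a stress-induced gene, read 365, 95.5 and 274 against 275, 514 and 317 CPM, lower in A1005 and higher in A1129 and A1471. The guidance gene Sema5a read 15.8, 55.3 and 236 against 10.1, 214 and 136 CPM, higher in A1129 and lower in the other lines, and Sh2d5 5.02, 58.4 and 32 against 5.84, 9.4 and 7.47 CPM, level in A1005 and lower in the others. With 1 library for each line and treatment these differences between lines were not tested.

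The same inhibitor did far less where FGF receptors were free. Crizotinib against DMSO called 0 of 13836 genes in the paired edgeR test, with 258 genes at an unadjusted p under 0.05 and a lowest adjusted p of 0.130, while DESeq2 called 2 and limma-voom 0. Among the 5506 genes called with both inhibitors against PD173074, the median absolute log2 change with Crizotinib alone was 0.0857. The test of the difference between both changes called 2241 genes (16.2%), 1486 with the lower change under PD173074 (10.7%) and 755 with the higher (5.46%), and 127 without the pairing (126 lower and 1 higher). Of the 2241, 2216 were also called with both inhibitors against PD173074, and 2215 of those had the same sign in both. The difference contains the change under PD173074 and uses the same libraries, and changes with Crizotinib alone were small. This overlap therefore follows largely from how the difference is built and is no separate evidence. Without A1129 the test called 496 genes and without A1471 423. Across the 13836 genes, which are not independent replicates, the fitted changes with and without PD173074 correlated with a Pearson r of 0.0785, although they share no library. Within lines r was 0.0274, 0.183 and -0.0136.

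Named genes show the size of that difference. Ccnd1 read 709, 1217 and 1060.1 CPM with DMSO and 810.5, 1273 and 1155 CPM with Crizotinib alone, a log2 change of 0.12, against -4.35 under PD173074 (difference -4.47 ± 0.39, adjusted p = 9.03e-05). Spry4 read 9.91, 24.6 and 18.6 CPM with DMSO and 8.95, 33.1 and 21.2 CPM with Crizotinib (0.16, difference -5.10 ± 0.40, adjusted p = 6.54e-05). Dusp6 stood at 225, 204 and 118 CPM and 270.5, 261 and 143 CPM (0.30, difference -4.28 ± 0.27, adjusted p = 3.93e-05). Neither gene was lower with Crizotinib alone in more than 1 line. Bmf stood at 3.51, 1.25 and 1.86 CPM with DMSO and 2.94, 1.92 and 2.16 CPM with Crizotinib (0.13, difference 2.27 ± 0.60, adjusted p = 0.0319), where PD173074 alone had 28.7, 8.87 and 38.6 CPM. The difference was called lower for all 40 tested mitosis genes, 43 of 46 DNA replication genes, 11 of 16 ERK feedback inhibitors and 22 of 30 ribosome biogenesis factors. It was called higher for 18 of 33 lysosome genes and 6 of 20 FoxO genes. For the interferon-stimulated genes it was called higher for 9 of 31, and their median was -0.57 with Crizotinib alone and 0.66 under PD173074. Gab1 (0.85 ± 0.25, adjusted p = 0.0417) passed the test of the difference, while Met (-0.24 ± 0.20, adjusted p = 0.45) and Fgfr1 (-0.03 ± 0.19, adjusted p = 0.938) did not.

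**Figure D5:**
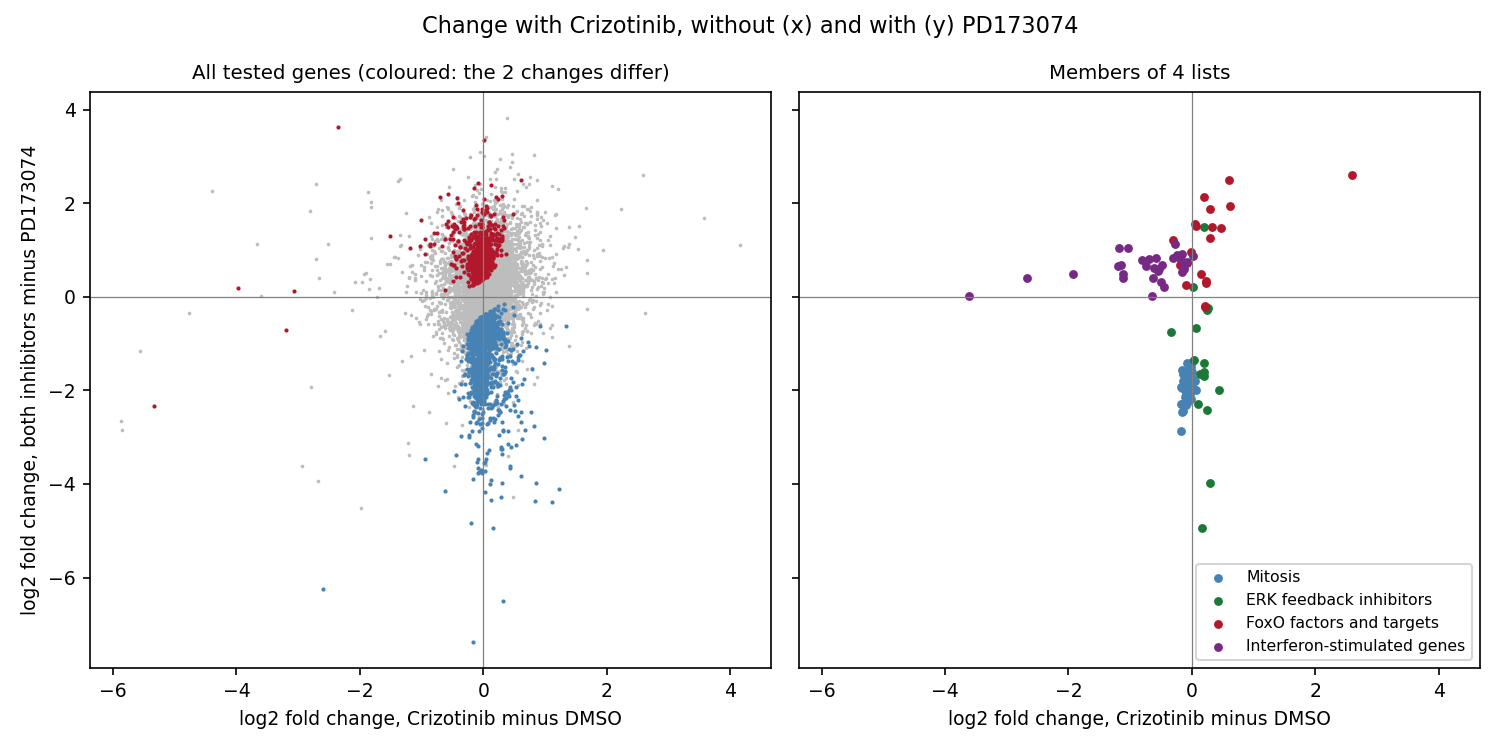
Log2 fold change with Crizotinib in the presence of PD173074 (vertical axis) against that in its absence (horizontal axis), for 13836 tested genes on the left (blue and red, the 1486 and 755 genes whose changes differed) and for 4 lists on the right. Mitosis genes form a tight group low on the vertical axis and near 0 on the horizontal one. The median of interferon-stimulated genes was -0.57 on the horizontal axis, where no gene was called, and 0.66 on the vertical one.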

How the data were processed

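RNA-sequencing of 12 tumoursphere cultures was analysed, 1 for each of 3 spindloid lines and 4 treatments. The authors sequenced on a NextSeq500, aligned reads with STAR to mm10 and deposited raw counts, whole numbers of reads for each of 55573 Ensembl genes, without normalization. HTSeq and bcl2fastq are named in the submitters' processing notes without a version. The use of strand and the annotation release are not given in the sources used here, so overlapping, antisense and paralogous genes are uncertain. Treatment and line were taken from the labels, and the dose from the study's methods.

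Low genes were removed by filterByExpr (10 counts at least, 15 in total). A quasi-likelihood model of edgeR 4.0.16 (R 4.3.3) with TMM factors was fitted to all 12 libraries with treatment and line as terms, and p-values were adjusted by Benjamini-Hochberg with a threshold of 0.05. CPM values use TMM library sizes. The contrasts were both inhibitors minus PD173074, Crizotinib minus DMSO, and the difference of these. The pairing comes from the line in the labels. Deviations from the group means correlated with r = 0.911, 0.853 and 0.864 between libraries of the same line and -0.633 to -0.0974 between those of different lines. Subtracting a mean of only 3 libraries pulls correlations between different lines below 0, so the negative sign carries no information. P-values rest on the spread that line and treatment leave unexplained, pooled over all 12 libraries, with 1 culture for each line and treatment. They do not measure the spread between lines of this comparison alone. No 2 libraries were identical. Molecular identifiers are not named in the sources used here, so reads may count a molecule more than once.

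The alternatives were no replicate block, DESeq2 1.42.0, limma-voom (limma 3.58.1), DESeq2 size factors, total counts, no filter, a floor of 10 counts per library, a fit of only the 6 libraries, a size limit of 1.5 on the log2 scale, a prior count of 0.5 in place of 2, and leaving out each line. Those of Crizotinib against DMSO were added after the data were seen. On simulated counts in which 200 genes differed by 2 on the log2 scale, the paired test of both inhibitors against PD173074 recovered 177 with 17 false calls among 13650 genes, and the unpaired test 92 with 0 false calls. Those genes changed equally in every line and no other gene changed with treatment. In the data 39.8% of genes were called, by a median of 0.72, and the lines responded unequally. The simulation therefore does not give the error rate of either test there.

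The members, the 24 lists (623 genes, 538 tested) and the tests were chosen with earlier results of these data known. Genes were named by rule: the 12 largest rises and falls (average log2 CPM from 3, 1 direction in the 3 lines), the 5 smallest p, up to 5 called members of each list in each direction with its textbook core, the genes and reference genes the study names, the 6 genes whose lines disagree most (average log2 CPM from 5), and the 3 highest and 3 lowest differences. Coordinates are of GENCODE M21 on GRCm38, which holds 55480 of the gene identifiers, and promoter windows of RefSeq. Python 3.11.15, pandas 2.3.3, numpy 2.4.6 and matplotlib 3.10.9 were used. Some genes are not reported here.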

Additional observations from a re-analysis of the deposited data

Results flagged for a closer look

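The change with Crizotinib differed with and without PD173074 for 2241 of 13836 genes in the paired test of the difference itself. The called differences named here are of genes that passed a limit on mean level, which 1 line can carry. The 3 lowest were Spry4 at -5.10, Areg at -4.64 and Ccnd1 at -4.47 on the log2 scale. The 3 highest were Rasl12 at 3.34, Tmem44 at 2.50 and Bmf at 2.27. Spry4, Areg and Ccnd1 had fewer reads under both inhibitors than in any of the other 9 libraries. Tmem44, a membrane protein gene, read 1.99, 3.29 and 9.54 CPM with PD173074 and 11.7, 22.1 and 42.9 CPM with both inhibitors in A1005, A1129 and A1471, against 0.712 ± 0.301 CPM (SD, n = 3) with DMSO and 0.659 ± 0.299 CPM with Crizotinib. Rasl12 was above 1 CPM in A1129 alone.

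For 6 genes the lines went in different directions between both inhibitors and PD173074. With 1 library for each line and treatment the difference between lines was not tested. The limit on mean level can be met through 1 line, and Chdh, Rassf4 and Acan were near or under 1 CPM in at least 1 line. The range of the log2 difference between lines was 2.89 for Chdh, 2.83 for Ndrg1, 2.83 for Sh2d5, 2.82 for Rassf4, 2.76 for Acan and 2.74 for Sema5a. The within-line log2 differences in A1005, A1129 and A1471 were -0.11, 2.70 and -0.19 for Chdh and -0.41, 2.43 and 0.21 for Ndrg1. They were -0.64, 1.95 and -0.79 for Sema5a and 0.21, -2.62 and -2.08 for Sh2d5. For Rassf4, a Ras association domain gene, they were 0.93, 2.35 and -0.47, and its A1471 libraries stayed under 1 CPM. Acan, which encodes the cartilage proteoglycan aggrecan, had 1.42, -1.33 and -0.45 and under 1 CPM in A1005.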

How the results depend on the processing

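Without the replicate block, which gives up the pairing by line, both inhibitors against PD173074 gave 660 called genes (116 higher and 544 lower) in place of 5506, and the difference from the Crizotinib effect without PD173074 gave 127 (1 higher and 126 lower) in place of 2241. A size limit of 1.5 on the log2 scale left 723 (264 and 459) and 487 (91 and 396). The paired fit of only the 6 libraries of this comparison called 3909 genes, 1922 higher and 1987 lower. Leaving out 1 line gave 2352 to 4734 genes, 818 to 2166 higher and 1534 to 2568 lower, and for the difference 423 to 1679, 44 to 484 and 379 to 1195, with the lowest totals without A1129 (2352) and without A1471 (423), in fits with fewer libraries. DESeq2 called 1140 genes with a higher difference in place of 755, and Crizotinib against DMSO called 2 genes with DESeq2 and 6 with no filter in place of 0. The scaling moved the median of all genes from 0.05 to at most 0.10 on the log2 scale. Of 167 named genes called in the paired test, 123 missed the threshold without the block, 14 with DESeq2, 14 with limma-voom, 12 with only the 6 libraries, 23 without A1005, 60 without A1129 and 51 without A1471. Signs changed for Acan with DESeq2 (0.22) and, in its mean within-line log2 CPM difference (-0.12), with a prior count of 0.5 (0.13), without A1129 for Chdh (-0.17 to 2.25 over the lines left out), Ndrg1 (-0.063 to 1.47) and Sema5a (-0.72 to 1.01), and for Krt19, whose mean within-line log2 CPM difference was 0.55 with a prior count of 0.5. The causes were not tested. Genes under about 1 CPM, such as Spry4 with both inhibitors, rest on few counts, and their fold changes depend on the prior count.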
